A study of Mus musculus with 12 samples.

Results

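The genes described here are the liver enzymes that turn cholesterol into conjugated bile acids, together with the bile acid receptor FXR (Nr1h4) and its partner in repression SHP (Nr0b2). They were taken by name: Cyp7a1, Cyp8b1, Cyp27a1, Cyp7b1, Hsd3b7, Akr1d1, Baat, Slc27a5, Nr1h4 and Nr0b2. A probe set stood for a gene where the platform annotation gave it exactly 1 gene symbol, and where several did, the one with the highest mean over the 12 arrays. All 10 members were measured, each by 1 such probe set, out of 22180 genes in all.

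The series holds 12 single-colour Affymetrix arrays, 1 for each liver of a male mouse, in 4 groups of 3 biological replicates. The groups were Lats2-CKO mice on a high-cholesterol diet, wild-type (WT) mice on the high-cholesterol diet, Lats2-CKO mice on normal diet and WT mice on normal diet. The mice were 8 weeks old at the start and stayed on their diet for 9 weeks. The high-cholesterol (Paigen) diet held 1.25% cholesterol and the normal chow held none. Paigen-type diets are usually made with cholate, a bile acid salt, as well, while the labels here state the cholesterol only. The labels name the mutant both Lats2-CKO and Lats2-KO, and give no strain, promoter, Cre line or cell type for the deletion. The Lats2 kinase belongs to the Hippo pathway, which limits organ size, and the design crosses its loss with the diet.

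Bile acids are the main route by which the liver disposes of cholesterol. In the classic pathway Cyp7a1 starts the conversion and Cyp8b1 decides how much of the product becomes cholic acid, while the alternative pathway runs through Cyp27a1 and Cyp7b1. Hsd3b7 and Akr1d1 then modify the steroid ring, and Slc27a5 and Baat join the finished acid to an amino acid. Bile acids bind FXR in hepatocytes, FXR induces SHP, and SHP represses Cyp7a1 and Cyp8b1 by acting on factors such as LRH-1 and HNF4 alpha that hold these genes on. In mice a gut hormone, FGF15, which reaches the hepatocyte receptor Fgfr4 and its partner beta-Klotho (Klb), represses Cyp7a1 as well.

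Values are log2 expression per probe set after RMA, and levels are compared only within a gene. Changes are given with the standard error (SE) of a limma fit over all 22180 genes and all 12 arrays, and a gene is said to have risen or fallen where its Benjamini-Hochberg adjusted p was under 0.05. The array of WT normal-diet mouse 3 correlated over genes at a mean of 0.981 with its own group and 0.987 with the WT high-cholesterol group, and its nearest array was Lats2-CKO high-cholesterol array 3 (r = 0.993). It thus goes against its diet label, and whether it was mislabelled cannot be settled from these values. It is called by its label here, and the results that rest on it stand beside values without it. It was singled out by its likeness to the other diet, so p-values without it are not independent of the difference tested. A rise or fall given without this array carries that limit. The arrays also fell into 2 sets of 6 by their median (3.48 to 3.49 and 3.423 to 3.434). The higher set held arrays 1 and 2 of each normal-diet group and array 1 of each high-cholesterol group, so it is not balanced between the diets. Lats2 read 4.62, 4.89 and 4.99 on Lats2-CKO high-cholesterol arrays against 5.12, 5.71 and 5.97 on WT high-cholesterol arrays, and 4.37, 4.76 and 4.79 on Lats2-CKO normal-diet arrays against 5.15, 5.14 and 5.69 on WT normal-diet arrays. Within each diet every Lats2-CKO array thus read below every WT array, with differences of -0.77 ± 0.23 on the high-cholesterol diet and -0.68 ± 0.23 on normal diet, which did not pass over all genes (limma adjusted p = 1 and 0.35). Whether the probe set lies in the deleted part is not given in the sources used here.

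The hepatocyte marker list (Alb, Apoa1, Apob, Ttr, Tf, Fgb, Serpinc1 and Hnf4a, 7 of 8 measured) had a mean level of 12.23 to 12.28 on Lats2-CKO high-cholesterol arrays, 12.12 to 12.28 on WT high-cholesterol arrays, 12.21 to 12.24 on Lats2-CKO normal-diet arrays and 12.20 to 12.27 on WT normal-diet arrays. In whole liver, fewer cells of a type and less RNA per cell cannot be told apart.

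With the high-cholesterol diet, Cyp7a1 and Cyp8b1 of the classic pathway and Cyp7b1 of the alternative pathway read lower and the ring enzyme Akr1d1 read higher, while the changes of FXR itself and of the conjugation enzymes were 0.25 or less in size over both genotypes with all arrays. Averaged over both genotypes and with all 12 arrays, 1 of the 10 members passed, Cyp7b1, which fell by 1.84 ± 0.35 (SE, 6 arrays against 6, limma adjusted p = 0.0407). This call ended with the array sets as a block (-1.81, limma adjusted p = 0.0799) and when any of 9 arrays was left out (limma adjusted p = 0.066 to 0.114). Of all genes 1.24% were called in this comparison, 0.87% on the lower side, and 6 members had an unadjusted p under 0.05 (18% of all genes). Without WT normal-diet array 3, 4 members passed: Cyp8b1, Cyp7a1 and Cyp7b1 fell (4.1% of all genes did) and Akr1d1 rose (3.14% of all genes did), 7.24% of all genes being called either way. That array was picked out by its values, so these calls are not independent of the choice. The median size of change, up or down, was 0.30 over the members against 0.10 over all genes with all arrays, and 0.41 against 0.12 without array 3.

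**Figure D1:**
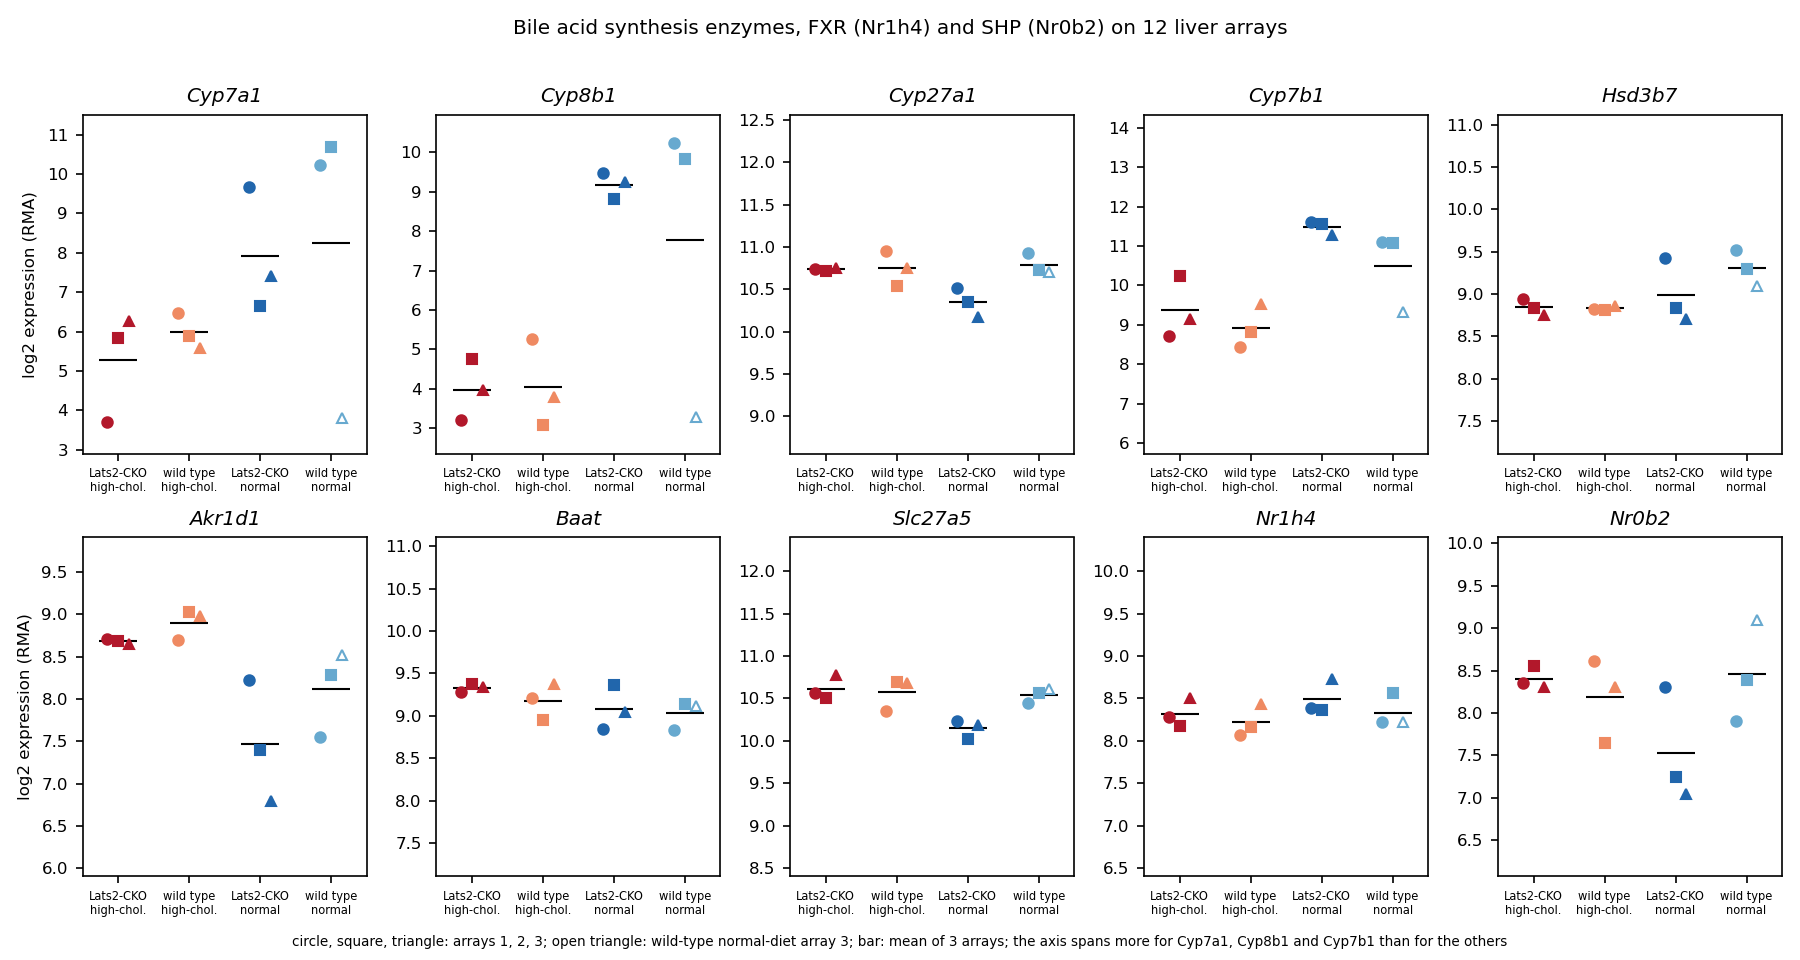
Log2 expression (RMA) of each member on each of the 12 arrays, by group, with circles, squares and triangles for arrays 1, 2 and 3 of a group, a bar at the mean of 3 arrays and an open triangle for WT normal-diet array 3. Cyp8b1 lay at 3.08 to 5.27 on the 6 high-cholesterol arrays and at 8.81 to 10.23 on 5 of the normal-diet arrays, with the open triangle at 3.29.

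Cyp8b1, the sterol 12-alpha-hydroxylase that steers synthesis towards cholic acid, showed the widest difference between the diets among the members. It read 3.21, 4.75 and 3.98 on Lats2-CKO high-cholesterol arrays against 9.48, 8.81 and 9.26 on Lats2-CKO normal-diet arrays. It read 5.27, 3.08 and 3.79 on WT high-cholesterol arrays against 10.23, 9.83 and 3.29 on WT normal-diet arrays. All 6 high-cholesterol arrays were thus low and 5 of the 6 normal-diet arrays high, with WT normal-diet array 3 among the low ones. The lowest values lay close to the 30th percentile of all gene means (3.04).

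Averaged over both genotypes Cyp8b1 had a change of -4.47 ± 1.02 with all arrays (limma adjusted p = 0.0605) and fell by 5.59 ± 0.39 without WT normal-diet array 3 (limma adjusted p = 7.53e-05), a 48.2-fold difference in signal between high-cholesterol values close to background and normal-diet values well above it. Array 3 entered the Lats2-CKO comparison only through the shared spread: the change there was -5.20 ± 1.45 with it (limma adjusted p = 0.14) and -5.20 ± 0.52 without it (limma adjusted p = 0.00114). Fitted on the 6 Lats2-CKO arrays alone it also passed, at limma adjusted p = 0.00562. In WT livers the change was -3.74 ± 1.45 (limma adjusted p = 0.408), and -5.98 ± 0.58 without array 3 (limma adjusted p = 0.00178). In Lats2-CKO livers the change of Cyp8b1 was -5.93 among higher-set arrays and -4.89 among lower-set arrays. In WT livers it was -4.77 among higher-set and 0.15 among lower-set arrays, where array 3 is the lone normal-diet array.

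Cyp7a1, the rate-limiting enzyme of the classic pathway, was more scattered within the normal-diet groups. It read 3.71, 5.84 and 6.28 on Lats2-CKO high-cholesterol arrays against 9.68, 6.64 and 7.42 on Lats2-CKO normal-diet arrays. It read 6.48, 5.90 and 5.58 on WT high-cholesterol arrays against 10.23, 10.69 and 3.80 on WT normal-diet arrays. The diets did not overlap in Lats2-CKO livers, although the gap between Lats2-CKO high-cholesterol array 3 and normal-diet array 2 was small, and in WT livers they overlapped through array 3 alone.

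Over both genotypes Cyp7a1 had a change of -2.45 ± 1.09 (limma adjusted p = 0.269) and fell by 3.55 ± 0.59 without WT normal-diet array 3 (limma adjusted p = 0.00682). In Lats2-CKO livers its change of -2.64 did not pass with all arrays (SE 1.54, limma adjusted p = 0.505) or without array 3 (SE 0.79, limma adjusted p = 0.133). In WT livers its change was -2.25 ± 1.54 (limma adjusted p = 0.645), and -4.47 ± 0.88 without array 3 (limma adjusted p = 0.0328). Among higher-set arrays Cyp7a1 had a change of -4.45 in Lats2-CKO and -3.98 in WT livers, and among lower-set arrays of -1.36 in Lats2-CKO and 1.94 in WT livers.

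The promoters of Cyp8b1, Akr1d1 and Nr0b2 are shown because Cyp8b1 and Akr1d1 lie on opposite sides of the diet comparison and Nr0b2 encodes the repressor between FXR and these enzymes. Each sequence is the RefSeq window of GRCm38.p6 from 250 bases before to 50 bases after the gene's start, written 5′ to 3′ on the gene's strand. Capitals mark exact matches on either strand to 4 motifs. CAAGG is the core of the LRH-1 site. CAAGGNCA is its longer form, which contains the core. AGGTCA is the hexamer bound by many nuclear receptors. TATAAA is the TATA box. The Cyp8b1 window is chr9:121916256-121916555 on the minus strand, the Akr1d1 window chr6:37529923-37530222 on the plus strand, and the Nr0b2 window chr4:133553126-133553425 on the plus strand.
Cyp8b1: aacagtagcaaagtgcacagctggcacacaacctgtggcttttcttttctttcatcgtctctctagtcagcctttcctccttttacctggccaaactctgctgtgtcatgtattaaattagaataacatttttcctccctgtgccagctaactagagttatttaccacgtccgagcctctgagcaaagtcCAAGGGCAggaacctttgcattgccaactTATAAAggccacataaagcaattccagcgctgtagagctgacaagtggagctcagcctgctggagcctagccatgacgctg
Akr1d1: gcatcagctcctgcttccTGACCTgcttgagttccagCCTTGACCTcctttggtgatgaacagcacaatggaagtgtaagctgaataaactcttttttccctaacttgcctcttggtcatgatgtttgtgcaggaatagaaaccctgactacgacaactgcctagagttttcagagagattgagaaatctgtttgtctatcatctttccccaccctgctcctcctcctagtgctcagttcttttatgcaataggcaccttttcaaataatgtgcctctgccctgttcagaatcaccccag
Nr0b2: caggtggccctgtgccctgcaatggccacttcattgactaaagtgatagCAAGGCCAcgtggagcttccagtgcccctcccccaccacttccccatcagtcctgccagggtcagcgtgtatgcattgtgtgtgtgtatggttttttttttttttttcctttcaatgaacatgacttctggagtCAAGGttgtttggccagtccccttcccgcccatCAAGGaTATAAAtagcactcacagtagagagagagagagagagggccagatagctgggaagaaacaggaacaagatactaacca

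In the Cyp8b1 window CAAGGGCA, a match to the longer form that contains the core, starts at base 191, and TATAAA follows at base 220. In the Nr0b2 window the core occurs 3 times, at bases 50, 184 and 217, the first of them within a match to the longer form, and TATAAA starts at base 223. The Akr1d1 window holds the hexamer on the opposite strand at bases 19 and 41, the second overlapping a core on that strand at base 38, and no TATA box. Windows were found for 6 of the 10 members. Cyp7a1, Cyp7b1, Baat and Slc27a5 had none, so their promoters were not searched. The longer form was in 2 of them (Cyp8b1 and Nr0b2) and the core in 5, against 6.71% and 52.1% of the 32851 promoter windows of the table. The hexamer was in 2 of the 6 (Akr1d1 and Nr1h4), against 16.3% of all windows, and TATAAA in 2, against 13.6%. The inverted repeat of the hexamer with 1 base between, AGGTCANTGACCT, the consensus of FXR sites, was in none of the 6 and in 3 of all windows. Such matches are letters in a window and show no binding.

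Cyp7b1, the oxysterol 7-alpha-hydroxylase of the alternative pathway, read 8.73, 10.23 and 9.16 on Lats2-CKO high-cholesterol arrays against 11.62, 11.55 and 11.29 on Lats2-CKO normal-diet arrays. It read 8.44, 8.81 and 9.54 on WT high-cholesterol arrays against 11.11, 11.07 and 9.33 on WT normal-diet arrays. The fall over both genotypes was 3.59-fold with all arrays, and WT normal-diet array 3 again lay among the high-cholesterol values. Without that array Cyp7b1 fell by 2.14 ± 0.27 over both genotypes (limma adjusted p = 0.0019), with changes of -2.11 ± 0.36 in Lats2-CKO livers (limma adjusted p = 0.0181) and -2.16 ± 0.40 in WT livers (limma adjusted p = 0.026).

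With all arrays neither genotype passed for Cyp7b1 by itself, at -2.11 ± 0.49 in Lats2-CKO livers (limma adjusted p = 0.0963) and -1.57 ± 0.49 in WT livers (limma adjusted p = 0.336). With the array sets as a block and without WT normal-diet array 3 the change over both genotypes was -2.37 (limma adjusted p = 0.00319). Among higher-set arrays the change was -2.75, and among lower-set arrays -0.88. The lower-set value includes a change of -0.15 in WT livers, where WT normal-diet array 3 is the lone normal-diet array. Lower-set Lats2-CKO arrays read 10.23 and 9.16 on the high-cholesterol diet against 11.29 on normal diet. The 9 arrays whose removal ended the call, at changes of -1.89 to -1.68, were all but WT high-cholesterol array 3, Lats2-CKO high-cholesterol array 2 and WT normal-diet array 3.

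Cyp27a1, the mitochondrial sterol hydroxylase that opens the alternative pathway, stayed within a narrow range on all arrays. It read 10.74, 10.72 and 10.75 on Lats2-CKO high-cholesterol arrays against 10.52, 10.35 and 10.17 on Lats2-CKO normal-diet arrays, so the groups did not overlap. It read 10.95, 10.54 and 10.75 on WT high-cholesterol arrays against 10.93, 10.73 and 10.70 on WT normal-diet arrays, which did overlap. The change was 0.39 ± 0.12 in Lats2-CKO livers (limma adjusted p = 0.188) and -0.04 ± 0.12 in WT livers (limma adjusted p = 0.943).

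Akr1d1, the reductase that sets the bent ring shape of bile acids, ran the other way from Cyp7a1, Cyp8b1 and Cyp7b1. It read 8.71, 8.68 and 8.65 on Lats2-CKO high-cholesterol arrays against 8.22, 7.40 and 6.79 on Lats2-CKO normal-diet arrays. It read 8.70, 9.02 and 8.98 on WT high-cholesterol arrays against 7.55, 8.28 and 8.52 on WT normal-diet arrays. All 6 high-cholesterol arrays lay above all 6 normal-diet arrays, WT normal-diet array 3 included, an order in this direction that 0.379% of all genes had.

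Over both genotypes Akr1d1 had a change of 0.99 ± 0.23 with all arrays (limma adjusted p = 0.0598) and rose by 1.09 ± 0.23 without WT normal-diet array 3 (limma adjusted p = 0.0211). Leaving out Lats2-CKO normal-diet array 1 also brought it past the threshold, at 1.18 (limma adjusted p = 0.0324). Among higher-set arrays the change was 0.84, and among lower-set arrays 1.18. In Lats2-CKO livers the change was 1.21 ± 0.32 (limma adjusted p = 0.129) and in WT livers 0.78 ± 0.32 (limma adjusted p = 0.434).

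Hsd3b7, the dehydrogenase that acts on both pathways after the 7-alpha-hydroxylases, read 8.94, 8.84 and 8.75 on Lats2-CKO high-cholesterol arrays against 9.42, 8.83 and 8.71 on Lats2-CKO normal-diet arrays. It read 8.82, 8.81 and 8.86 on WT high-cholesterol arrays against 9.52, 9.30 and 9.10 on WT normal-diet arrays. The diets separated in WT livers and overlapped in Lats2-CKO livers. The changes were -0.14 ± 0.17 in Lats2-CKO livers (limma adjusted p = 0.787) and -0.47 ± 0.17 in WT livers (limma adjusted p = 0.376).

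Neither conjugation enzyme passed the test between the diets. Slc27a5, the ligase that activates bile acids with coenzyme A, read 10.57, 10.50 and 10.78 on Lats2-CKO high-cholesterol arrays against 10.23, 10.02 and 10.19 on Lats2-CKO normal-diet arrays, a change of 0.47 ± 0.12 (unadjusted p = 0.00233, limma adjusted p = 0.114) between groups that did not overlap. It read 10.35, 10.70 and 10.68 on WT high-cholesterol arrays against 10.45, 10.56 and 10.61 on WT normal-diet arrays, a change of 0.04 ± 0.12 (limma adjusted p = 0.95) between groups that overlapped. Baat, which joins the activated acid to taurine or glycine, lay between 8.83 and 9.38 on all 12 arrays and had a change of 0.19 ± 0.11 over both genotypes (limma adjusted p = 0.367).

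Neither the receptor gene nor the repressor gene passed in any of the 6 comparisons by limma, with or without WT normal-diet array 3. Nr1h4, which encodes FXR, lay between 8.07 and 8.73 on all 12 arrays and had a change of -0.14 ± 0.11 over both genotypes (limma adjusted p = 0.518). Nr0b2, which encodes SHP, read 8.35, 8.55 and 8.31 on Lats2-CKO high-cholesterol arrays against 8.31, 7.24 and 7.04 on Lats2-CKO normal-diet arrays. It read 8.61, 7.65 and 8.30 on WT high-cholesterol arrays against 7.90, 8.39 and 9.10 on WT normal-diet arrays. The diets did not overlap in Lats2-CKO livers and overlapped in WT livers. The lowest values were Lats2-CKO normal-diet arrays 2 and 3 and the highest was WT normal-diet array 3.

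The change of Nr0b2 was 0.87 ± 0.37 in Lats2-CKO livers (limma adjusted p = 0.333) and -0.28 ± 0.37 in WT livers (limma adjusted p = 0.847), or 0.04 ± 0.37 in WT livers without array 3. Within the Lats2-CKO normal-diet group the array with the highest Nr0b2 (array 1, 8.31) also had the highest Cyp7a1 (9.68) and Cyp8b1 (9.48). Arrays 2 and 3 were lower in these genes, and ran in opposite order for Nr0b2 (7.24 and 7.04) and Cyp7a1 (6.64 and 7.42). In the WT normal-diet group array 3 had the highest Nr0b2 and the lowest Cyp7a1 and Cyp8b1. These are single arrays, and a relation between the genes was not tested.

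**Figure D2:**
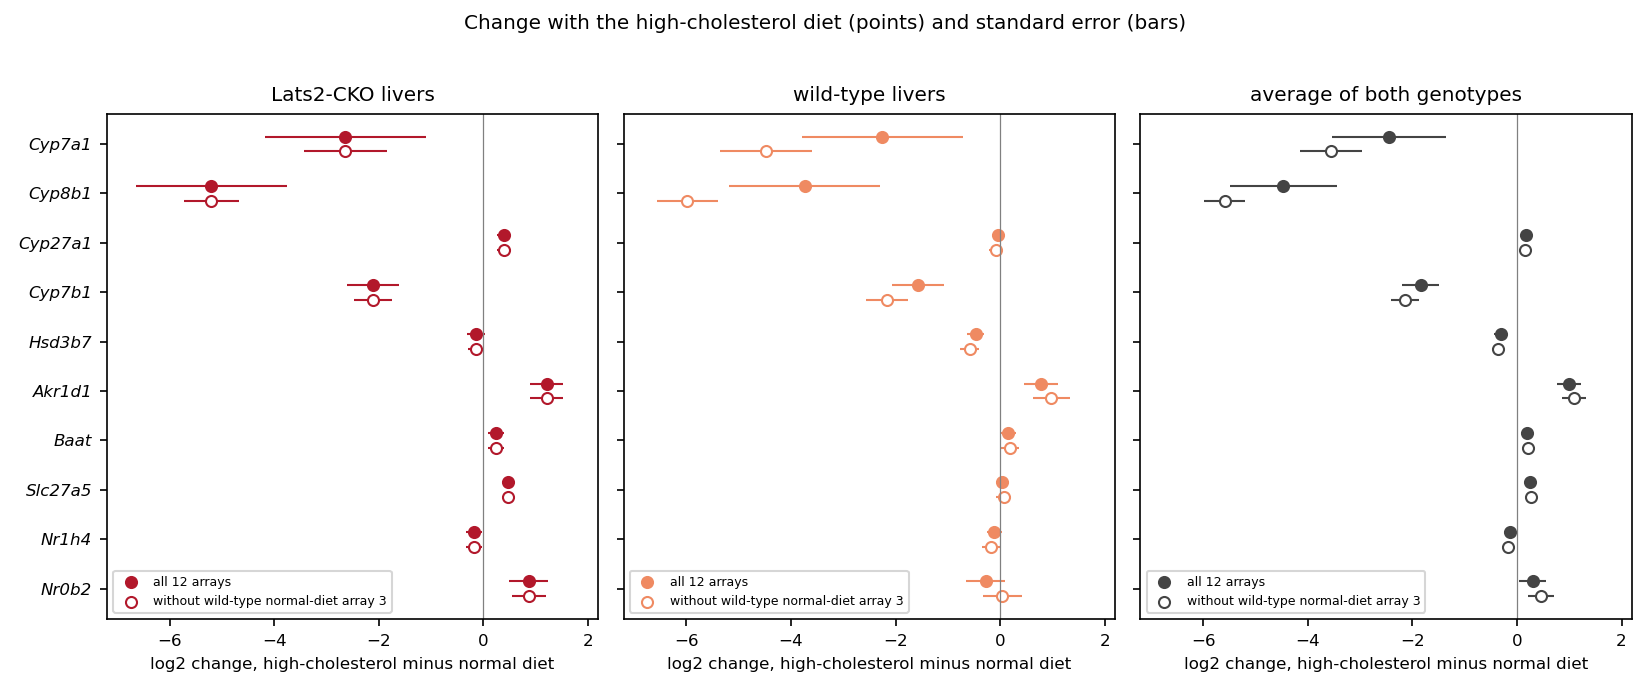
Log2 change of each member with the high-cholesterol diet (points, high-cholesterol minus normal diet) and its standard error (bars) in Lats2-CKO livers, in WT livers and averaged over both, with all 12 arrays (filled) and without WT normal-diet array 3 (open). In WT livers leaving out that array moved Cyp8b1 to -5.98, against -3.74 with it, and Cyp7a1 to -4.47, against -2.25, while the Lats2-CKO changes kept their size and had shorter bars for Cyp8b1, Cyp7a1 and Cyp7b1.

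Counted over the members, no gene passed in Lats2-CKO livers with all arrays by limma (0 of 10, against 0.271% of all genes), while 6 had an unadjusted p under 0.05 (13.4% of all genes), 4 higher (6.21%) and 2 lower (7.24%). In WT livers 0 of 10 passed, as did 0% of all genes, and 4 had an unadjusted p under 0.05 (10.6% of all genes), 1 higher (4.03%) and 3 lower (6.56%). Without WT normal-diet array 3 the members past the threshold were 2 in Lats2-CKO livers (Cyp8b1 and Cyp7b1, both lower, against 2.11% of all genes either way and 1.11% lower) and 3 in WT livers (Cyp8b1, Cyp7b1 and Cyp7a1, all lower, against 2.33% either way and 1.54% lower). Groups that did not overlap were seen in Lats2-CKO livers for 4 members on the higher side (8.98% of all genes) and 3 on the lower side (10.5%). In WT livers they were seen for 1 on the higher side (4.97%) and 1 on the lower side (8.81%), or 1 (14.7%) and 4 (Cyp7a1, Cyp8b1, Cyp7b1 and Hsd3b7, against 21.6%) without array 3. Over 6 high-cholesterol against 6 normal-diet arrays, 0 members were separate on the lower side (0.974% of all genes). Without WT normal-diet array 3, 3 were (Cyp8b1, Cyp7a1 and Cyp7b1, against 3.49% of all genes), and Akr1d1 was on the higher side (2.64%).

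The genotypes were then compared within each diet. On the high-cholesterol diet, 0 of the 10 members passed by limma, as did 0% of all genes, and 0 had an unadjusted p under 0.05 (2.93% of all genes). All 10 overlapped between Lats2-CKO and WT arrays, where 4.07% of all genes were separate on the higher side and 3.37% on the lower, with changes from -0.71 ± 1.54 (Cyp7a1) to 0.44 ± 0.49 (Cyp7b1). The wide errors of Cyp7a1 and Cyp8b1 (-0.07 ± 1.45) use the estimate of the spread shared by all groups, WT normal-diet array 3 included, and without that array the SEs were 0.79 and 0.52.

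On normal diet, 0 of 10 members passed by limma (0.0135% of all genes did), and 0 without WT normal-diet array 3 (0.018%). With all arrays 3 had an unadjusted p under 0.05 (8.99% of all genes), 0 higher (3.54%) and 3 lower (5.45%) in Lats2-CKO livers: Cyp27a1 (-0.44 ± 0.12, limma adjusted p = 0.269), Slc27a5 (-0.39 ± 0.12, limma adjusted p = 0.3) and Nr0b2 (-0.93 ± 0.37, limma adjusted p = 0.466). Cyp27a1 and Slc27a5 were lower on all 3 Lats2-CKO arrays than on all 3 WT arrays (7.36% of all genes did not overlap on this side). Cyp7b1 was higher on all 3 Lats2-CKO arrays (5.96% of all genes on that side), by 0.98 ± 0.49 with all arrays and 0.39 ± 0.40 without WT normal-diet array 3. Without that array the change of Cyp8b1 was -0.85 ± 0.58, against 1.40 ± 1.45 with it, and that of Cyp7a1 -2.55 ± 0.88, against -0.33 ± 1.54. That Cyp7a1 change had an unadjusted p of 0.0158 and did not pass over all genes (limma adjusted p = 0.38). Nr0b2 had a difference of -0.61 ± 0.37 without the array, no longer under 0.05 (limma unadjusted p = 0.125). Hsd3b7 then had one of -0.42 ± 0.18 (limma unadjusted p = 0.0437, limma adjusted p = 0.508). Cyp27a1 (-0.48 ± 0.14) and Slc27a5 (-0.36 ± 0.14) stayed under an unadjusted p of 0.05 by limma.

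Whether the diet acted differently in the genotypes was tested as an interaction. By limma 0 of 10 members passed (0.00451% of all genes did), and 0 without WT normal-diet array 3 (0.00902%). With all arrays 3 had an unadjusted p under 0.05 (5.62% of all genes), 3 of them positive (3.37%) and 0 negative (2.25%), with a more positive diet change in Lats2-CKO livers: Slc27a5 (0.43 ± 0.17, limma adjusted p = 0.814), Cyp27a1 (0.43 ± 0.17, limma adjusted p = 0.832) and Nr0b2 (1.15 ± 0.52, limma adjusted p = 0.889). Without WT normal-diet array 3, Cyp27a1 alone of the members had an unadjusted p under 0.05 (0.48 ± 0.19, limma adjusted p = 0.647, against 7.11% of all genes), and the interaction of Cyp7a1 was 1.83 ± 1.18, against -0.39 ± 2.18 with the array. A difference between the genotypes in the diet response of the enzymes was therefore not shown, and the SE of the interaction was 2.18 for Cyp7a1 and 2.05 for Cyp8b1 with all arrays.

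Other genes of the pathway were read from lists. Of 12 further enzymes of bile acid and oxysterol metabolism, 11 were measured, and averaged over both genotypes 1 passed (1.24% of all genes did, 0.87% on the lower side), Scp2, a sterol carrier and peroxisomal thiolase needed to shorten the side chain. Scp2 fell by 0.30 ± 0.06 (limma adjusted p = 0.0433), with 11.42, 11.59 and 11.41 on Lats2-CKO high-cholesterol arrays against 11.91, 11.99 and 11.93 on Lats2-CKO normal-diet arrays, and 11.55, 11.60 and 11.72 on WT high-cholesterol arrays against 11.79, 11.72 and 11.77 on WT normal-diet arrays. The difference was small but ran the same way in both genotypes, with groups that touched at 11.72 in WT livers. The median change of the list was 0.10 against -0.019 over all genes.

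Of 12 regulators of Cyp7a1 and Cyp8b1, 10 were measured and 1 passed with all arrays (0.271% of all genes did in Lats2-CKO livers, and 0.365% on the higher side over both genotypes), Klb, which encodes beta-Klotho, the partner of Fgfr4 in the response to FGF15. Klb rose by 1.17 ± 0.14 in Lats2-CKO livers (limma adjusted p = 0.0183) and by 0.66 ± 0.10 over both genotypes (limma adjusted p = 0.0248). It read 9.07, 8.87 and 9.07 on Lats2-CKO high-cholesterol arrays against 7.84, 7.79 and 7.87 on Lats2-CKO normal-diet arrays, and 8.66, 9.07 and 8.95 on WT high-cholesterol arrays against 8.63, 8.57 and 9.05 on WT normal-diet arrays. The Lats2-CKO normal-diet arrays thus stood below the other 9. In WT livers the means were 8.9 on the high-cholesterol diet and 8.75 on normal diet, and the groups overlapped. The average over both genotypes therefore rests mainly on the Lats2-CKO livers. Without WT normal-diet array 3, 2 regulators rose over both genotypes (3.14% of all genes did), Klb by 0.73 ± 0.09 (limma adjusted p = 0.00121) and Ppargc1a, a coactivator named after its values were seen, with a change of 1.07 ± 0.22 (limma adjusted p = 0.02). Nr5a2, which encodes LRH-1, had a change of -0.06 ± 0.12 over both genotypes (limma adjusted p = 0.819), and Hnf4a, which is also on the hepatocyte list, one of 0.08 ± 0.09 (limma adjusted p = 0.68). Hnf4a had means of 10.71 on Lats2-CKO high-cholesterol and 10.46 on Lats2-CKO normal-diet arrays, without overlap (8.98% of all genes on this side). In WT livers the means ran the other way, 10.51 against 10.61, and the groups overlapped.

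Of 12 other FXR targets and related genes, 10 were measured and none passed by limma with all arrays in any of the 6 comparisons. Over both genotypes 2 of the 10 had an unadjusted p under 0.05 (18% of all genes did), both on the higher side (7.56% of all genes). These were Pltp, the phospholipid transfer protein, at 0.90 ± 0.20 (limma adjusted p = 0.0575), and Abcb11, the bile salt export pump, at 0.64 ± 0.18 (limma adjusted p = 0.1). Both rose without WT normal-diet array 3 (3.14% of all genes did), Pltp by 0.92 ± 0.22 (limma adjusted p = 0.0348) and Abcb11 by 0.76 ± 0.16 (limma adjusted p = 0.0224). Abcb11 read 10.55, 10.09 and 10.51 on Lats2-CKO high-cholesterol arrays against 9.47, 9.90 and 9.29 on Lats2-CKO normal-diet arrays, and 9.92, 10.64 and 10.50 on WT high-cholesterol arrays against 9.56, 9.78 and 10.36 on WT normal-diet arrays. The list median was -0.03 against -0.019 over all genes. Fgf15, a gut gene, lay at 2.62 to 3.17 on all 12 arrays, around the 30th percentile.

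**Figure D3:**
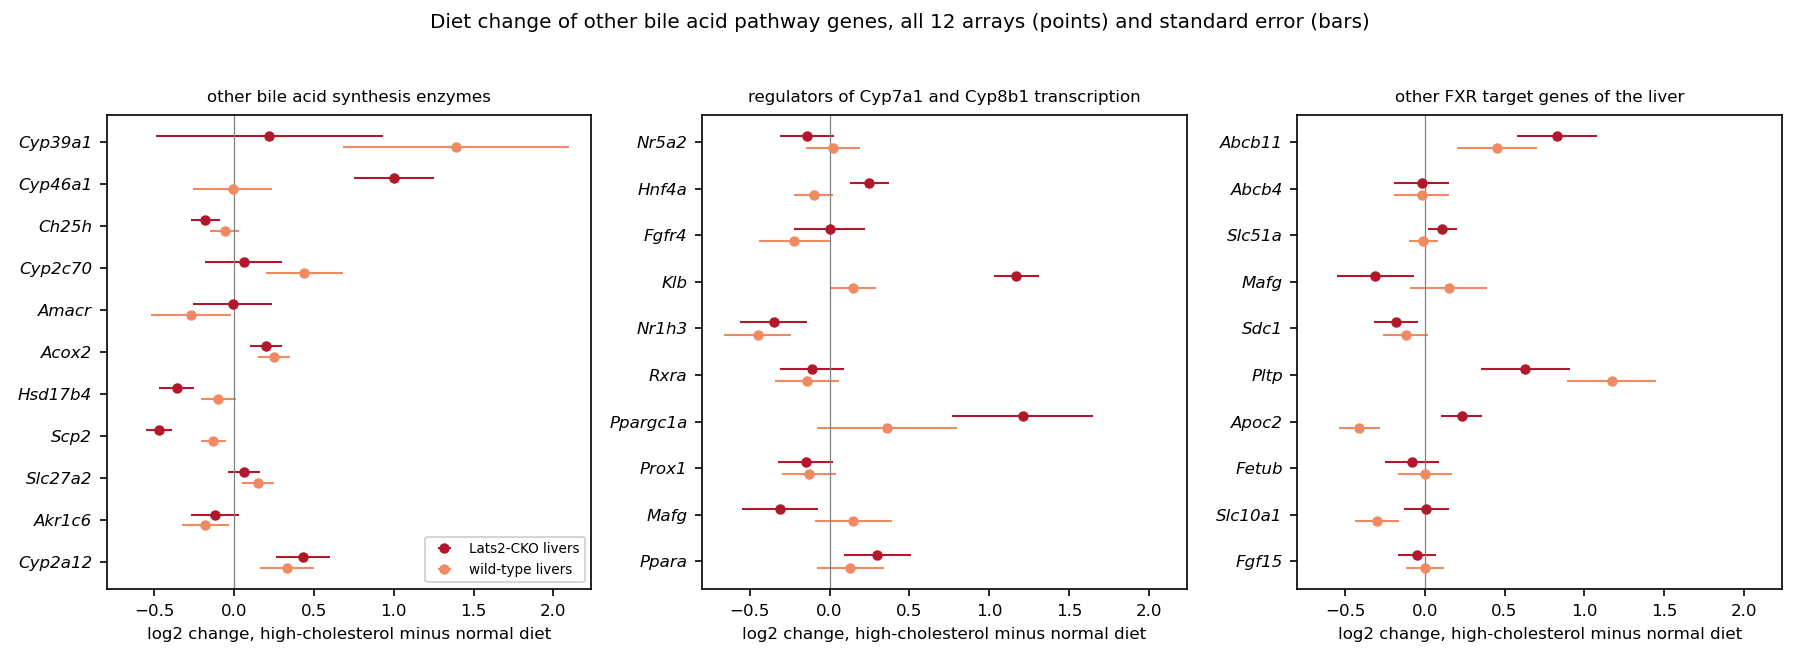
Log2 change with the high-cholesterol diet (points, high-cholesterol minus normal diet, all 12 arrays) and standard error (bars) in Lats2-CKO livers and WT livers for the measured genes of 3 lists. Klb in Lats2-CKO livers (1.17) lies apart from 0. So does Ppargc1a, with means of 7.3 on Lats2-CKO high-cholesterol and 6.09 on Lats2-CKO normal-diet arrays, though it did not pass with all arrays. Nr5a2, Hnf4a and Fgfr4 lie nearer to 0 in both genotypes.

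Some marker lists of other cells and of liver zones differed with the diet as well, while the endothelial and stellate cell lists overlapped between the diets in both genotypes. The 12 Kupffer cell and macrophage markers had a mean level of 6.52 to 7.17 on Lats2-CKO high-cholesterol arrays and 6.89 to 8.28 on WT high-cholesterol arrays, against 5.84 to 6.10 on Lats2-CKO normal-diet arrays and 6.36 to 6.94 on WT normal-diet arrays. Over both genotypes all 12 had higher fitted values and 2 rose (0.365% of all genes did), or 5 without WT normal-diet array 3 (3.14% of all genes). The 10 pericentral hepatocyte genes, which mark the zone around the central vein, had a mean of 7.14 to 7.56 and 7.24 to 7.60 on the Lats2-CKO and WT high-cholesterol arrays, against 8.21 to 8.49 and 7.57 to 8.86 on the Lats2-CKO and WT normal-diet arrays. The 7.57 was WT normal-diet array 3, the array that was also low in Cyp7a1 and Cyp8b1. Over both genotypes 9 of the 10 pericentral genes had lower fitted values and 3 fell (0.87% of all genes did), or 7 without that array (4.1% of all genes). Periportal genes (6 of 8 measured) had means of 9.79 to 9.94 and 9.58 to 10.06, against 9.17 to 9.45 and 9.48 to 9.77, in the same order of groups, and 1 of the 6 rose (0.365% of all genes did), or 2 without WT normal-diet array 3 (3.14%). The cholangiocyte markers had means of 3.62 to 3.81 and 3.5 to 3.71, against 3.4 to 3.62 and 3.45 to 3.7, in that same order. Of these, Krt7, Cftr and Sctr lay around the 30th percentile of all gene means, where a change would hardly show. The endothelial markers had means of 6.85 to 7.26 and 7.48 to 7.56, against 6.97 to 7.24 and 7.51 to 7.66, the stellate cell markers 4.98 to 5.25 and 5.13 to 5.63, against 5.20 to 5.83 and 5.27 to 5.34, and the B cell markers 3.18 to 3.43 and 3.12 to 5.15, against 3.02 to 3.13 and 3.24 to 3.47, again in the order Lats2-CKO and WT within each diet. The part of these shifts in the changes of the members was not tested.

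Genes with the nearest profiles were sought for Cyp8b1, Cyp7a1 and Nr0b2 among 14080 genes, as the smallest mean absolute difference over the 12 arrays between log2 values centred on each gene's mean. For Cyp8b1 these were Sqle, the squalene epoxidase of cholesterol synthesis (0.76), Cyp7a1 (1.07) and Derl3, of protein disposal in the endoplasmic reticulum (1.07). For Cyp7a1 they were Nnmt, a nicotinamide methyltransferase (0.91), Cyp8b1 (1.07) and Lgr5, a Wnt pathway receptor of pericentral hepatocytes (1.08). Sqle read 2.79 to 2.98 on Lats2-CKO high-cholesterol arrays and 2.81 to 2.88 on WT high-cholesterol arrays, against 7.96 to 8.70 on Lats2-CKO normal-diet arrays and 7.97, 7.0 and 2.55 on WT normal-diet arrays. WT normal-diet array 3 read 4.05 or less in all 6 of these genes, below the other 5 normal-diet arrays. The genes were picked for likeness over all 12 arrays, that one included, so the shared low reading follows from the choice. For Nr0b2 they were Pdk2, a kinase that holds back pyruvate oxidation (0.20), Etnppl, a phospholyase (0.22), and the small RNA Scarna17 (0.23). Pdk2 read 8.24, 8.19 and 8.29 on Lats2-CKO high-cholesterol arrays and 8.46, 7.98 and 8.20 on WT high-cholesterol arrays, against 7.97, 7.06 and 7.17 on Lats2-CKO normal-diet arrays and 8.08, 8.03 and 8.5 on WT normal-diet arrays.

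**Figure D4:**
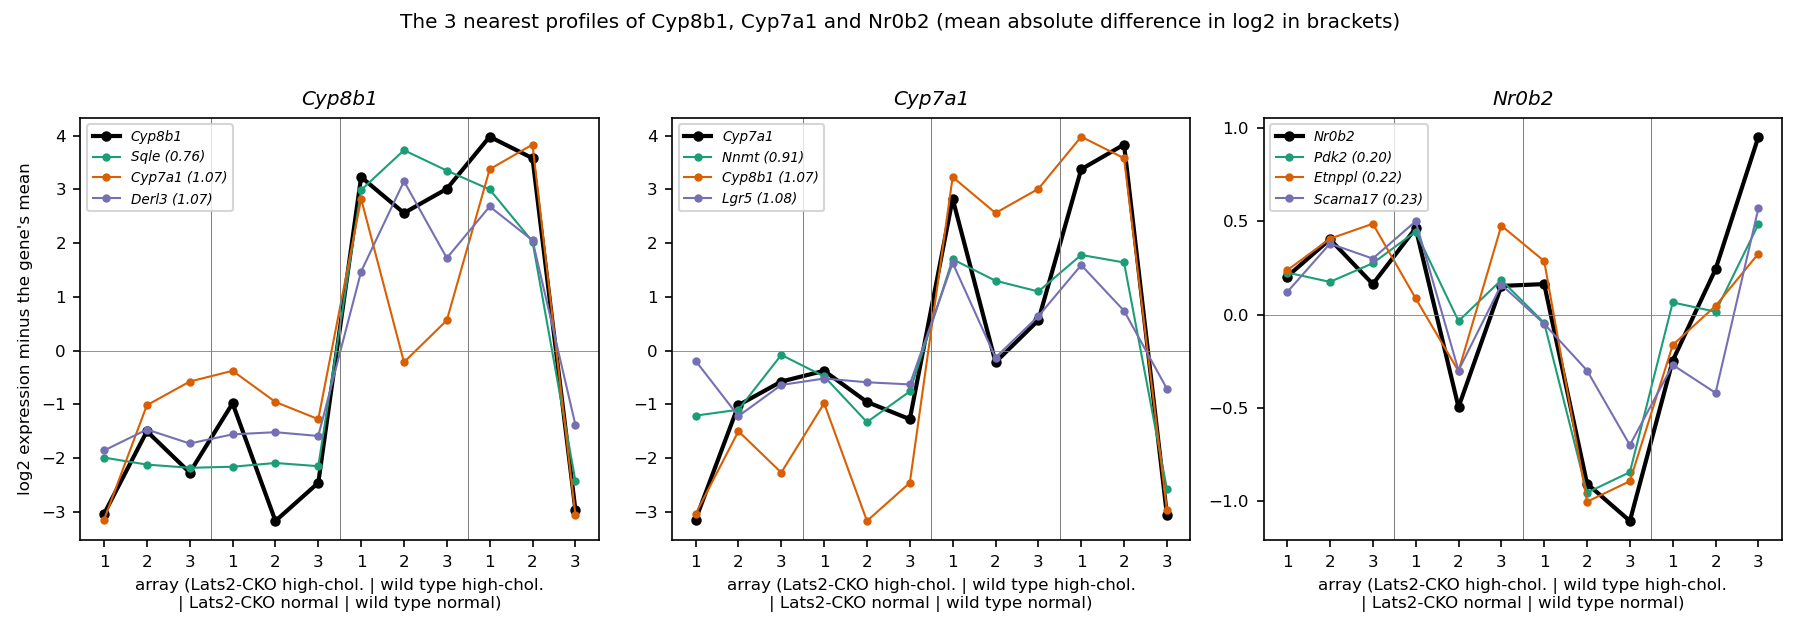
Log2 expression minus the gene's own mean on each of the 12 arrays for Cyp8b1, Cyp7a1 and Nr0b2 (black) and the 3 genes with the nearest profiles (colours), with the mean absolute difference in brackets. Cyp8b1, Cyp7a1 and their neighbours drop on WT normal-diet array 3, the last point of each panel, while Nr0b2 is low on Lats2-CKO normal-diet arrays 2 and 3 and highest on the last point. The neighbours were picked over all 12 arrays, so their likeness on the last point follows from the choice.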

How the data were processed

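Per the submitters' processing notes, the authors made the deposited values with RMA in Partek 6.6. They are log2 expression per probe set, a scale taken from their range (1.94 to 14.2). The settings of RMA and the genome build are not given in the sources used here, and no scanner output was used here. Precision is limited by having 3 arrays a group. Of 41345 probe sets, 23521 had 1 gene symbol, 1814 several and 16010 none. Symbols of 23328 were updated by gene identifier against a RefSeq table of GRCm38.p6, used for names only. The probe set with the highest mean stood for a gene, giving 22180 genes. Samples were grouped by their titles. Nothing in the labels says more of the replicates than that they are biological, so p-values measure the spread between these arrays.

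The test of changes was limma 3.58.1 (lmFit, then eBayes, under R 4.3.3), as 1 fit of 4 group means over all 12 arrays, with Benjamini-Hochberg adjustment over all genes and a threshold of 0.05, for 6 contrasts: diet in each genotype, diet averaged over both, genotype on each diet, and the interaction. The fit was tested on simulated data with noise independent between arrays. These data held no deviating array and no array sets, so that test does not cover such features. The members, gene lists, tests, alternatives and naming rule were chosen with earlier results of these data known. From the pathway lists, genes past the threshold were named, or else the 2 with the smallest unadjusted p for diet over both genotypes. Nr5a2, Hnf4a, Fgfr4 and Fgf15 were named for their roles, after their values were seen. Alternatives were a fit on the groups compared, the replicate number and the array sets as blocks, a trended and robust prior, array weights, dim genes left out (mean below the 30th percentile, 3.04), the mean of probe sets, quantile normalisation, median centring and each array left out. Promoters came from a RefSeq table of 32851 windows.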

Additional observations from a re-analysis of the deposited data

How the results depend on the processing

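The labels do not say that a replicate number marks a shared litter, batch or day. Deviations from the group means correlated at 0.002 to 0.176 over the 18 same-numbered pairs, all above 0 and 7 of them over 0.1, and at -0.227 to 0.182 over differently numbered pairs. Of the 12 arrays, 9 but not all correlated best with an array of their own number. This likeness comes from the data and not from the design, so the numbers were not used as pairs. Every array 1 was in the higher array set and every array 3 in the lower. Array 2 was in the higher set in the normal-diet groups and in the lower set in the high-cholesterol groups. Number and array set thus overlap in part, and only the set is unbalanced between the diets. With the replicate number as a block, the count of members past the threshold stayed at 1 for diet over both genotypes (Cyp7b1, -1.84, limma adjusted p = 0.0468) and 0 elsewhere.

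For diet over both genotypes, against 1 member with all arrays, the count was 2 with a trended and robust prior, 3 with array weights, 3 with dim genes left out, 0 with the array sets as a block and 4 with that block and without WT normal-diet array 3. It ran from 0 to 4 as each array was left out, with 4 only without WT normal-diet array 3. It was 0 without WT normal-diet array 1 or 2, Lats2-CKO normal-diet array 2 or 3, WT high-cholesterol array 1 or 2, or Lats2-CKO high-cholesterol array 1 or 3. In Lats2-CKO livers, against 0, it was 2 fitted on the groups compared only, 2 with the block and without WT normal-diet array 3, and 0 to 2 leaving out each array (2 without WT normal-diet array 3 and 1, Akr1d1, without Lats2-CKO normal-diet array 1). In WT livers, against 0, it was 2 with the block and without array 3, and 0 to 3 leaving out each array (3 without WT normal-diet array 3). The genotype and interaction counts were 0 in every setting run.

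Of 580 gene results under settings that kept all arrays or joined the block to leaving out array 3, 548 kept direction and side of the threshold, 14 newly passed, 1 no longer passed and 17 turned sign, none of them past the threshold. For diet in WT livers the turned values were, for Cyp27a1, 0.01 after quantile normalisation, 0.02 with the array set block and 0.04 with the block and without array 3, for Slc27a5, -0.01 with the block and -0.03 with the block and without array 3, and for Nr0b2, 0.33 with both. On normal diet the genotype change of Cyp8b1 was -0.79 with both. On the high-cholesterol diet array weights gave genotype changes of 0.35 for Cyp8b1, 0.01 for Cyp27a1 and -0.02 for Hsd3b7, and median centring gave 0 for Cyp27a1. The interaction was 1.32 for Cyp7a1 and 0.01 for Cyp8b1 with array weights, and with the block and without array 3 it was 1.93 for Cyp7a1, 0.72 for Cyp8b1, 0.21 for Cyp7b1 and 0.06 for Nr1h4.

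Leaving out each array in turn, 668 of 720 gene results stayed, 10 newly passed, 9 no longer passed and 33 turned sign. The ranges that crossed 0 were, for diet in WT livers, -0.14 to 0.06 (Cyp27a1), -0.03 to 0.15 (Slc27a5), -0.22 to 0.01 (Nr1h4) and -0.56 to 0.04 (Nr0b2), and in Lats2-CKO livers -0.28 to 0.08 (Hsd3b7). For genotype on normal diet they were -0.08 to 0.17 (Baat), -2.55 to 0.90 (Cyp7a1) and -0.85 to 2.62 (Cyp8b1). On the high-cholesterol diet they were -1.21 to 0.07 (Cyp7a1), -0.55 to 0.54 (Cyp8b1), -0.11 to 0.09 (Cyp27a1), -0.03 to 0.06 (Hsd3b7), -0.07 to 0.10 (Slc27a5) and -0.05 to 0.43 (Nr0b2). For the interaction they were -0.02 to 0.24 (Baat), -1.61 to 1.83 (Cyp7a1), -0.97 to 0.05 (Cyp7b1), -2.69 to 0.78 (Cyp8b1) and -0.19 to 0.05 (Nr1h4). The cause was not tested.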

Other observations

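Among the further enzymes of bile acid and oxysterol metabolism, Cyp39a1, an oxysterol 7-alpha-hydroxylase, Cyp2a12, a bile acid hydroxylase of the mouse, and Cyp46a1, which makes an oxysterol from cholesterol, are described here after their values were seen. Cyp39a1 read 9.00, 8.05 and 9.15 on Lats2-CKO high-cholesterol arrays against 8.80, 8.19 and 8.57 on Lats2-CKO normal-diet arrays. It read 9.55, 8.60 and 9.05 on WT high-cholesterol arrays against 6.64, 6.57 and 9.83 on WT normal-diet arrays. WT normal-diet arrays 1 and 2 were thus the lowest of the 12 and array 3 the highest. The change of Cyp39a1 in Lats2-CKO livers was 0.22 ± 0.71 (limma adjusted p = 0.931). In WT livers it was 1.39 ± 0.71 with all arrays (limma adjusted p = 0.529), and Cyp39a1 rose by 2.46 ± 0.34 without array 3 (limma adjusted p = 0.00917). Cyp2a12 rose in WT livers without array 3, by 0.58 ± 0.11 (limma adjusted p = 0.0258). Cyp46a1 had a change of 1.0 ± 0.25 in Lats2-CKO livers (limma adjusted p = 0.113) and of -0.01 ± 0.25 in WT livers (limma adjusted p = 0.992).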
